A study of Mus musculus with 33 samples.

Results

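The comparison set day 4 against day 2 of reprogramming in neural progenitor cells (NPCs), as 2 libraries against 2, out of 10 NPC libraries taken on 5 days and 33 samples in the whole series. Members were chosen by sample title, and every gene of the count table was eligible: 15052 of 37620 Ensembl genes reached the minimum level for testing. All groups used here were SKM cells, named for the factors Sox2, Klf4 and Myc, kept in mouse ES medium with doxycycline, a drug used to switch on inducible genes. No added Oct4 gene is named in the labels. The day 4 group held 1 library whose column in the count table names a feeder and 1 whose column says no feeder, and these are called the feeder and the no-feeder library here. The day 2 group held 2 libraries with no such mark. A second label of the same samples gives day 2 for the day 4 libraries and day 0 for the day 2 libraries, so the days rest on the titles. The labels call the cells secondary NPCs without saying how they were made, do not say whether the feeder cells were in the sequenced culture, do not name a GFP sort for days 2 and 4 as they do for days 8 and 12, and do not say whether replicates came from separate cultures. The p-values therefore measure the spread between these libraries, which may be technical.

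Reprogramming turns a somatic cell into a pluripotent stem cell, a cell able to form all tissues of the embryo. In fibroblasts the early phase is known for a mesenchymal-to-epithelial transition, in which cells gain E-cadherin junctions and keratins, while the endogenous pluripotency network, with Pou5f1 (Oct4) and Nanog at its centre, is switched on later. NPCs are dividing cells of the nervous system that carry Nestin and SOX-family factors and can give neurons, astrocytes and oligodendrocytes. Sox2, 1 of the induced factors, is also a factor that NPCs themselves use.

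The day 4 libraries held 19421076 (feeder) and 18859843 (no-feeder) counts, and the day 2 libraries 19710478 and 18934371. Levels are given as CPM, each count divided by its library's TMM-adjusted total and put on a common scale and in the order feeder and no-feeder library for day 4, then library 1 and library 2 for day 2. CPM is not divided by transcript length, so levels are compared between libraries and not between genes. At this depth 3 counts, taken as the limit that a count of 0 allows, correspond to 0.147 to 0.155 CPM, and such limits cover counting error only. Fold changes are log2 of day 4 over day 2 with their standard error (SE), and a gene is said to have risen, fallen or been called when its Benjamini-Hochberg adjusted p in edgeR's quasi-likelihood test over all 15052 genes was under 0.05. In bulk RNA, fewer cells of a type and less RNA per cell cannot be told apart.

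Across all genes 365 (2.42%) were called, 275 (1.83%) higher and 90 (0.598%) lower on day 4, with a median log2 fold change of -0.01 over all genes tested. At an unadjusted p under 0.05 there were 2987 (19.8%), and DESeq2 called 1510 (10%). Under quantile normalization with limma the split was 434 higher and 246 lower. The share of genes whose library ranges did not overlap was 24.5% for higher and 24.2% for lower day 4 levels. The authors' deposited table gives 21 of 14970 genes (0.14%) an adjusted p under 0.05 for this comparison, 21 higher and 0 lower. Of these, 20 were called here. The calls depended on single libraries. With the feeder library alone against both day 2 libraries 488 genes (3.24%) were called, 408 higher (2.71%) and 80 lower (0.531%), and with the no-feeder library alone 71 (0.472%) were called, 66 higher (0.438%) and 5 lower (0.0332%). Of the 365 genes, 204 were called with the feeder library alone, 56 with the no-feeder library alone and 45 with each of them alone, 44 of these higher. Leaving out day 2 library 1 left 185 calls and leaving out day 2 library 2 left 0, with 2023 genes at an unadjusted p under 0.05 in edgeR. In all 365 genes the library ranges of the days did not overlap, so the sign could not change when a library was left out.

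The 2 day 4 libraries stood apart before any comparison with day 2. Of 9807 genes with at least 10 CPM in the higher library, 187 (1.91%) were over 4-fold higher in the feeder library and 45 (0.459%) over 4-fold higher in the no-feeder library. Each is a single library, so these ratios have no replicate check. The 40 genes of a fibroblast and mesenchymal list summed to 9033 CPM in the feeder and 2456 CPM in the no-feeder library, against 2235 and 3565 CPM on day 2. The feeder library was the highest in this sum, and the no-feeder library lay within the day 2 range. All 38 tested members of that list were higher in the feeder than in the no-feeder library, 23 of the 36 members with at least 10 CPM by over 4-fold.

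Single fibroblast genes showed the gap plainly. Col3a1, a fibrillar collagen, had 1114 CPM in the feeder and 3.59 CPM in the no-feeder library, against 2.40 and 11.7 CPM on day 2. Lum, the collagen-binding proteoglycan lumican, had 99.5 and 0.344 CPM on day 4, against 0.0981 and 0.251 CPM on day 2. Thy1, a surface protein of fibroblasts and neurons, had 80.2 and 7.62 CPM on day 4, against 2.85 and 4.76 CPM on day 2. In all 3 the feeder library was far above the other 3 libraries. In Thy1 the no-feeder library was also above day 2, by less, while in Col3a1 it lay within the day 2 range. For Lum the no-feeder and day 2 levels rest on few counts, near the floor of 0.147 to 0.155 CPM. They are too low to tell apart. Zeb1, a transcription factor on the same list, is listed at 0 in all 4 libraries.

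The 24 macrophage list members summed to 181 CPM in the feeder and 17.5 CPM in the no-feeder library, against 8.63 and 9.27 CPM on day 2. Of them, 23 were highest in the feeder library, and 6 had no count in the other 3 libraries: Adgre1 (the F4/80 antigen), Tyrobp, Ctss, C1qa, C1qb and Ms4a7. Lyz2, the lysozyme of myeloid cells, had 79.3 and 0.197 CPM on day 4, against 0.147 and 0.0501 CPM on day 2. Csf1r, the receptor for macrophage colony-stimulating factor, had 3.15 and 0.0492 CPM on day 4, against 0 and 0.10 CPM on day 2. Of the 24 members only 7 reached the minimum level for testing, and Csf1r was not among them. None of these 7 was called in edgeR, and the values below cover them alone. At an unadjusted p under 0.05 there were 5 (19.8% of all genes), and DESeq2 called 2 (10% of all genes). Their median log2 fold change was 2.79 with the feeder library alone and 0.95 with the no-feeder library alone.

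**Figure D1:**
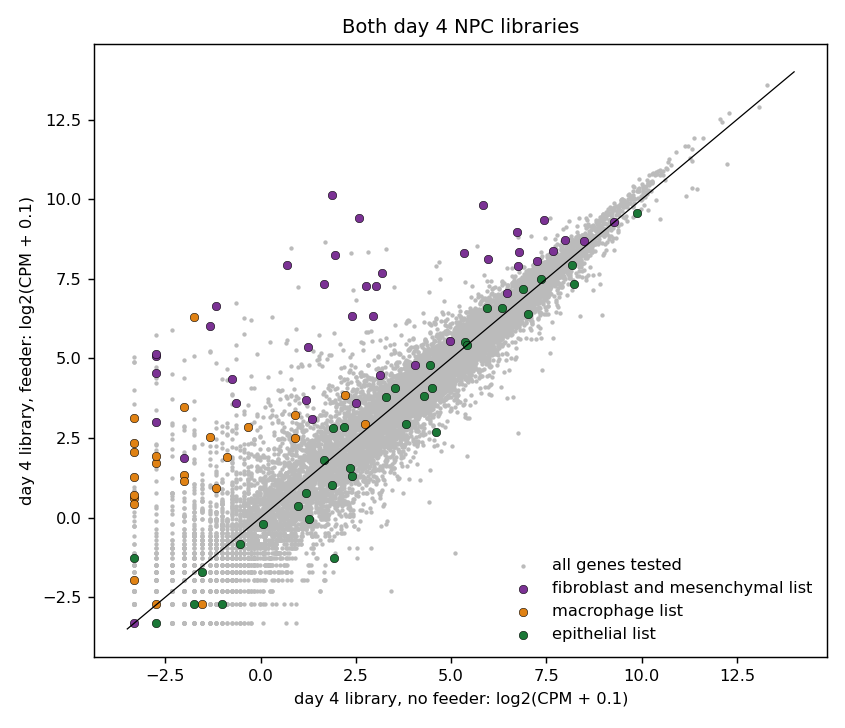
Level of each tested gene in the feeder day 4 library (vertical axis) against the no-feeder day 4 library (horizontal axis), both as log2(CPM + 0.1), with the line of equal levels and the fibroblast and mesenchymal, macrophage and epithelial lists in colour. Fibroblast and macrophage genes sit above the line, as in Col3a1 with 1114 and 3.59 CPM, while epithelial genes lie along it.

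Among the genes most unequal between the day 4 libraries, several had no count in the no-feeder library. Fgf7, a growth factor made by mesenchyme, had 32.6 CPM in the feeder library and no count in the no-feeder library, at least 221-fold higher against a floor of 3 counts in that library. By the same floor Il1rl1, a cytokine receptor, was at least 201-fold, Fabp4, a fatty acid binding protein, at least 198-fold and Saa3, an acute-phase protein, at least 109-fold higher. Mmp13, a collagenase, was at least 83.3-fold higher and had no count on day 2 either. Gpnmb, a glycoprotein of phagocytes and other cells, had 53 CPM in the feeder library and 1 count in the no-feeder library, a ratio of 1080 with a 95% counting interval of 193 to 42600.

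In the other direction, over 4-fold from 10 CPM, 45 genes were higher in the no-feeder library. Tgm3, an epidermal transglutaminase, had 0.103 CPM in the feeder and 10.7 CPM in the no-feeder library, against 0.442 and 1.05 CPM on day 2. Krt6a, a keratin, had 1.29 and 21.2 CPM on day 4, against 8.73 and 26.3 CPM on day 2. Aqp3, a water and glycerol channel, had 13.7 and 97.9 CPM on day 4, against 57.0 and 48.8 CPM on day 2. For Tgm3 the no-feeder library stood above the other 3, and for Krt6a and Aqp3 the feeder library was below the other 3. Ttyh1, a neural membrane protein, had 2.69 and 21.8 CPM on day 4, against 16.1 and 26.8 CPM on day 2, and the feeder library was below the other 3. Col2a1, the cartilage collagen, had 24.7 and 168 CPM on day 4, against 146 and 602 CPM on day 2.

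The induced factors were high on both days. Sox2 had 1500 and 1235 CPM on day 4, against 669 and 704 CPM on day 2. Klf4 had 2026 and 1588 CPM on day 4, against 1011 and 845 CPM on day 2, and Myc 2147 and 1740 CPM on day 4, against 1298 and 1078 CPM on day 2. All 3 had both day 4 libraries above both day 2 libraries, and none passed the test. The log2 fold changes were 0.99 ± 0.24 for Sox2 (adjusted p = 0.062, edgeR), 0.96 ± 0.39 for Klf4 (adjusted p = 0.20) and 0.71 ± 0.25 for Myc (adjusted p = 0.15). All 3 were at an unadjusted p under 0.05, and DESeq2 called 2 of them. Counts of these genes add induced and endogenous transcripts.

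The epithelial list held more genes called higher than any other list. Of its 34 genes, all tested, 10 were higher and 0 lower, where 1.83% of all genes were called higher. In the lower direction 0 of the 34 were at an unadjusted p under 0.05 and 0 were called by DESeq2. Both day 4 libraries lay above both day 2 libraries in 22 members (24.5% of all genes), and the median log2 fold change was 1.19, beside -0.01 over all genes tested. Set alone against the same day 2 libraries, the feeder library gave a median of 1.19 with 6 members called (2.71% of all genes) and the no-feeder library 1.31 with 4 called (0.438% of all genes), beside all-gene medians of -0.03 and -0.02. The summed level of the list was 1991 and 2328 CPM on day 4, against 1012 and 835 CPM on day 2, and the feeder library was not the higher of the day 4 pair.

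Adhesion and junction genes were among those called. Epcam (ENSMUSG00000045394), an epithelial adhesion molecule and an early surface marker of reprogramming, had 45.3 and 40.7 CPM on day 4, against 7.80 and 7.82 CPM on day 2. The day 4 libraries were close to each other, as were the day 2 libraries, and the groups were far apart. Its log2 fold change was 2.46 ± 0.23 (adjusted p = 0.0088, edgeR), with an adjusted p of 0.0033 for the feeder and 0.032 for the no-feeder library alone. Cdh1, E-cadherin, had 144 and 118 CPM on day 4, against 38.2 and 48.9 CPM on day 2, and both day 4 libraries were the higher ones. It rose by 1.59 ± 0.25 on the log2 scale (adjusted p = 0.023), with adjusted p = 0.020 for the feeder library alone and 0.077 for the no-feeder library alone. Cldn4, a tight junction claudin, had 2.84 and 5.01 CPM on day 4, against 0.294 and 0.10 CPM on day 2, a low gene throughout. It rose by 4.27 ± 0.69 (adjusted p = 0.023) and was called with each day 4 library alone. Crb3, an apical polarity protein, had 13.9 and 19.3 CPM on day 4, against 2.11 and 0.351 CPM on day 2. It rose by 3.74 ± 0.80 (adjusted p = 0.045), but with neither day 4 library alone was it called.

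The keratin, protease and splicing members rose as well. Krt7, a keratin of simple epithelia, had 6.40 and 24.0 CPM on day 4, against 0.442 and 0 CPM on day 2, and the no-feeder library was the highest. It rose by 6.05 ± 0.98 (adjusted p = 0.023) and was called with each day 4 library alone. St14, the membrane protease matriptase, had 43.1 and 42.6 CPM on day 4, against 7.56 and 11.7 CPM on day 2. The day 4 pair was nearly equal and above day 2, and St14 rose by 2.15 ± 0.27 (adjusted p = 0.015). Its Kunitz-type inhibitors Spint1 and Spint2 rose by 1.91 ± 0.41 (adjusted p = 0.047) and 1.51 ± 0.32 (adjusted p = 0.045). Spint1 was under 1 CPM in every library of days 2 and 4. Esrp1, an epithelial regulator of splicing, had 13.6 and 9.69 CPM on day 4, against 2.40 and 1.55 CPM on day 2, with both day 4 libraries higher. It rose by 2.55 ± 0.48 (adjusted p = 0.034). Krt18 rose by 2.37 ± 0.48 (adjusted p = 0.038) at 3.41 and 3.05 CPM on day 4, against 0.589 and 0.651 CPM on day 2. Krt8, the partner keratin of Krt18, had 163 and 297 CPM on day 4, against 81.9 and 18.9 CPM on day 2. Its groups did not overlap, but the day 2 libraries lay far from each other and it was not called (2.19 ± 0.63, adjusted p = 0.093).

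Not all of the list was called. Dsp, the desmosomal plaque protein desmoplakin, had 763 and 947 CPM on day 4, against 379 and 301 CPM on day 2. Its days did not overlap, but it was not called (adjusted p = 0.087). Jup, plakoglobin, overlapped between the days with 83.3 and 129 CPM on day 4, against 77.8 and 96.1 CPM on day 2. Grhl2, an epithelial transcription factor, was at 1.19 and 1.87 CPM on day 4, against 1.28 and 0.802 CPM on day 2, and also overlapped. Ovol2 and Ehf, both transcription factors, were the members with negative fold changes, neither called. Of 15 keratinocyte genes tested Sfn, the 14-3-3 sigma protein, was the member called (1.83% of all genes were called higher). It had 34.5 and 27.6 CPM on day 4, against 11.4 and 8.12 CPM on day 2 (1.67 ± 0.31, adjusted p = 0.034).

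Promoters of epithelial genes are shown because 10 members of the list were called in the same direction. RefSeq promoter windows (build GRCm38.p6) were available for 21 of the 34 genes, in 26 windows, and the 250 bases before the start site were searched on both strands. The E-box CACCTG, the sequence that repressors of E-cadherin such as Snai1 and Zeb1 are known to bind, was found in 16 of 26 epithelial windows (61.5%) and in 17.2% of all 32851 windows. It was found in 3 of 32 windows of the DNA replication list (9.38%). Among called members alone the shares were 7 of 8 epithelial windows (87.5%) and 3 of 9 DNA replication windows (33.3%). The GC box GGGCGG, a common promoter element of the Sp and Klf kind, was likewise found in 61.5% of the epithelial windows, in 65.6% of the DNA replication windows and in 32.7% of all. Among called members alone the GC box was in 7 of 8 epithelial windows (87.5%), the same share as the E-box. It was in 6 of 9 DNA replication windows (66.7%). Base composition differed too, with a median G+C content of 60.6% in epithelial, 58.8% in DNA replication and 52.4% in all windows. In the windows of called members it was 63.6% for epithelial and 56.4% for DNA replication genes. The part of base composition in these shares was not tested. A match describes the letters and is not a binding site. Of the 7 called genes with a window, 3 whose calls held with each day 4 library alone are printed, with the E-box in capitals: Epcam (chr17:87635729-87635978, plus strand), with 2 matches, Krt7 (chr15:101412153-101412402, plus strand) and Cldn4 (chr5:134946935-134947184, minus strand), with 1 match each.
Epcam: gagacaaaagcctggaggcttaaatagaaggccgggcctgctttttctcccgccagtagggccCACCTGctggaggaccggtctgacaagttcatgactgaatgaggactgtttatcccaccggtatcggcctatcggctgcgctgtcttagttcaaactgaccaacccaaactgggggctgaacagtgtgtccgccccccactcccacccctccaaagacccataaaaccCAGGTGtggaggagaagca
Krt7: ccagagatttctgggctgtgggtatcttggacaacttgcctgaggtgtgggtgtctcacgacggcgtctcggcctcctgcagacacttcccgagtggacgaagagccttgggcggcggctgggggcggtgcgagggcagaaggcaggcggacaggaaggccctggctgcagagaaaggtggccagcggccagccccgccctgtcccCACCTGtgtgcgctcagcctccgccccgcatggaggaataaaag
Cldn4: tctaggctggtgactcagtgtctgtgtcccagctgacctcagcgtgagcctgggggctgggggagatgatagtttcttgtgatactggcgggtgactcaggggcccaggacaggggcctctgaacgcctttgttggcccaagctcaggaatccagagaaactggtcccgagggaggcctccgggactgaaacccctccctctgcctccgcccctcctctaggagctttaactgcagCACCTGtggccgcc

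**Figure D2:**
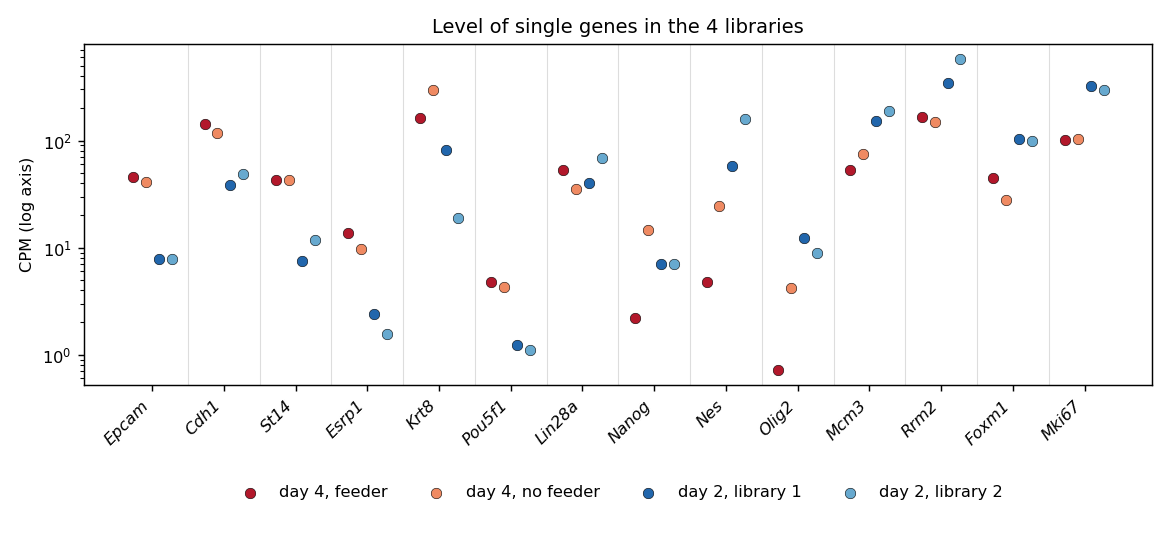
CPM (log axis) of 14 genes in the feeder and no-feeder day 4 libraries (red and orange) and the 2 day 2 libraries (blue shades), left to right within each gene. Epcam, Cdh1, St14 and Esrp1 stand above day 2 in both day 4 libraries, Mcm3, Rrm2, Foxm1 and Mki67 below it, and Nanog and Nes differ between the day 4 libraries.

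Of 30 tested pluripotency genes, 2 were higher (1.83% of all genes) and 0 lower, with a median log2 fold change of 0.46. That median was 0.47 with the feeder library alone and 0.0 with the no-feeder library alone. In the lower direction 0 were at an unadjusted p under 0.05 and DESeq2 called 0. Pou5f1, the endogenous Oct4 gene and not 1 of the induced factors, had 4.75 and 4.28 CPM on day 4, against 1.23 and 1.10 CPM on day 2. The libraries of each day were close and the days did not overlap, a log2 fold change of 1.95 ± 0.37 (adjusted p = 0.038, edgeR). With the feeder library alone it missed the threshold (adjusted p = 0.057), as with the no-feeder library alone (0.12). By comparison it averaged 332 CPM in the GFP-labelled NPC libraries of day 8 and 259 CPM in those of day 12. Tfcp2l1, a factor of naive pluripotency, had 13.3 and 4.97 CPM on day 4, against 2.55 and 1.10 CPM on day 2, with the feeder library the highest. It rose by 2.32 ± 0.50 (adjusted p = 0.046), and the call held with the feeder library alone (0.011) but not with the no-feeder library alone (0.20).

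Other pluripotency genes split the day 4 libraries or stayed at 0. Nanog had 2.22 CPM in the feeder and 14.65 CPM in the no-feeder library, against 7.06 and 6.96 CPM on day 2. The day 4 libraries thus lay on opposite sides of day 2, and Nanog was not called (adjusted p = 0.86). Esrrb ran the other way, with 2.94 and 0.934 CPM on day 4, against 1.52 and 1.60 CPM on day 2. Lin28a, which blocks let-7 microRNA maturation, had 53 and 35.5 CPM on day 4, against 40.2 and 68.3 CPM on day 2, and overlapped. Tdgf1, Gdf3, Prdm14 and Dppa3 had no count in any of the 4 libraries, and Zfp42 and Dppa5a had at most 0.0983 CPM.

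The DNA replication list held more genes called lower than any other list. Of 33 genes tested, 8 were lower and 0 higher, where 0.598% of all genes were called lower. In the higher direction 0 were at an unadjusted p under 0.05 and DESeq2 called 0. All 33 fold changes were negative, both day 4 libraries lay below both day 2 libraries in 30 (24.2% of all genes), and the median was -0.94. Set alone against the same day 2 libraries, the feeder library gave a median of -0.96 with 1 member called lower (0.531% of all genes) and the no-feeder library -0.93 with 0 called (0.0332% of all genes). The summed level was 1983 and 1840 CPM on day 4, against 3437 and 4102 CPM on day 2.

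Subunits of the replicative helicase were among those called. Mcm3, a subunit of the MCM replicative helicase, had 53 and 74.15 CPM on day 4, against 152 and 189 CPM on day 2. Both day 4 libraries were the lower ones, and Mcm3 fell by 1.42 ± 0.28 on the log2 scale (adjusted p = 0.035, edgeR). Mcm5 and Mcm7, subunits of the same ring, fell by 1.11 ± 0.24 (adjusted p = 0.046) and 0.97 ± 0.20 (adjusted p = 0.043), and Mcm10, which helps to activate the helicase, fell by 1.26 ± 0.25 (adjusted p = 0.038). Orc6 of the origin recognition complex fell by 1.18 ± 0.22 (adjusted p = 0.034) and Prim1, a primase subunit, by 1.20 ± 0.21 (adjusted p = 0.029). Of the nucleotide enzymes, Rrm2, the ribonucleotide reductase subunit, had 166 and 149.5 CPM on day 4, against 343 and 571 CPM on day 2. It fell by 1.54 ± 0.30 (adjusted p = 0.036), the day 4 pair being close and the day 2 pair wide apart. Tyms, thymidylate synthase, had 28.1 and 22.4 CPM on day 4, against 56.1 and 66.9 CPM on day 2, and fell by 1.28 ± 0.23 (adjusted p = 0.029). Pcna, the sliding clamp, had 236 and 218 CPM on day 4, against 428 and 389 CPM on day 2, without overlap, and just missed the threshold (adjusted p = 0.061).

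The promoters of the DNA replication genes were searched in the same way, for 27 of the 33 genes in 32 windows. The E2F-type sequences TTTCCCGC, TTTGGCGC, TTTCGCGC and TTTGCCGC, of the kind bound by the E2F factors of the cell cycle, were found in 9 windows (28.1%), in 1.86% of all windows and in 0 of the 26 epithelial windows. All 8 called members had a window, 9 in all, and 2 of these held a match. Both are shown with the matches in capitals: Mcm5 (chr8:75109259-75109508, plus strand), where 2 matches on opposite strands overlap, and Mcm7 (chr5:138171884-138172133, minus strand), with 1 match on the other strand.
Mcm5: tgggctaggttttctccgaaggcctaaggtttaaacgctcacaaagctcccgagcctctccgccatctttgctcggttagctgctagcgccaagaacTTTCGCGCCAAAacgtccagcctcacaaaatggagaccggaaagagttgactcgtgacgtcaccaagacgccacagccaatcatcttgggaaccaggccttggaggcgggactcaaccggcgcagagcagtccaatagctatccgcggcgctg
Mcm7: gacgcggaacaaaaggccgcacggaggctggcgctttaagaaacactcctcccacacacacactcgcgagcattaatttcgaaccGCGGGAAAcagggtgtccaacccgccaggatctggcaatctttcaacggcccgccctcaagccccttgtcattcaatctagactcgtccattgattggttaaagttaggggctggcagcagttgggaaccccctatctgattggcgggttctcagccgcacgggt

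Of 26 mitosis genes tested, 2 were lower (0.598% of all genes) and 0 higher, 22 had both day 4 libraries below day 2 (24.2% of all genes), and the median was -0.78. In the higher direction 0 were at an unadjusted p under 0.05 and DESeq2 called 0. Foxm1, the transcription factor that drives mitotic genes, had 44.8 and 27.7 CPM on day 4, against 103 and 99.2 CPM on day 2. It fell by 1.48 ± 0.27 (adjusted p = 0.030), and the call held with the no-feeder library alone (0.042) but not with the feeder library alone (0.063). Ccna2, cyclin A2, had 133 and 82.2 CPM on day 4, against 219 and 267 CPM on day 2, and fell by 1.17 ± 0.26 (adjusted p = 0.047). The no-feeder library was the lowest in both. Mki67, the proliferation marker Ki-67, had 101 and 104 CPM on day 4, against 324 and 296 CPM on day 2. Its groups lay far apart, yet the fit over all NPC days did not call it (log2 fold change -1.60 ± 0.44, adjusted p = 0.081). Cdc20 and Ube2c, which act in the anaphase-promoting pathway, were the members with positive fold changes, and both overlapped between the days.

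**Figure D3:**
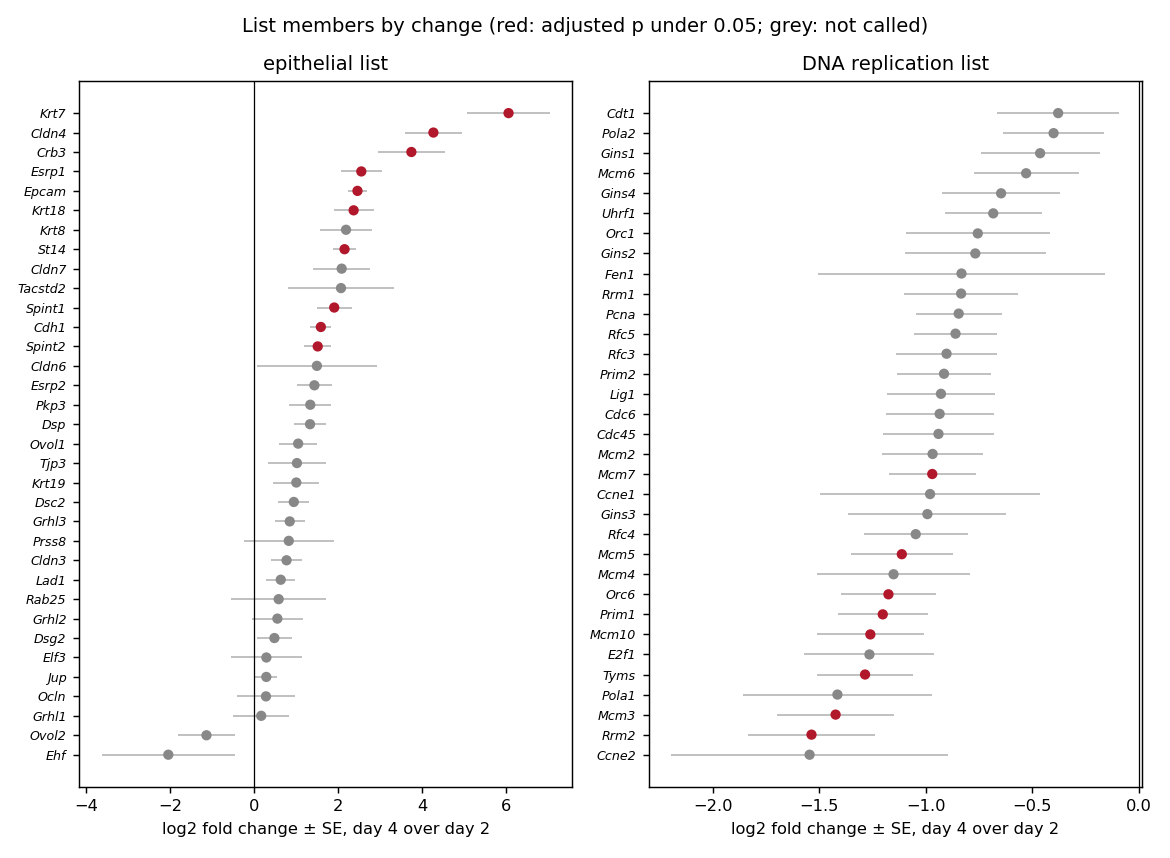
Log2 fold change of day 4 over day 2 with its SE for each tested member of the epithelial list (left) and the DNA replication list (right), with called genes in red. The epithelial members run up to Krt7 at 6.05 with 10 called, and all 33 DNA replication members lie below 0 with 8 called.

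Of 30 neural progenitor genes tested none was called in edgeR, while 3 higher and 8 lower members had an unadjusted p under 0.05 and DESeq2 called 1 higher and 3 lower. In either direction 19.8% of all genes had an unadjusted p under 0.05 and DESeq2 called 10%. The list's median was -0.51, with -0.80 for the feeder library alone and -0.20 for the no-feeder library alone. All 3 values are against the same day 2 libraries. The list summed to 1350 and 1410 CPM on day 4, against 2081 and 3356 CPM on day 2. Nes, the intermediate filament nestin, had 4.75 CPM in the feeder and 24.6 CPM in the no-feeder library, against 57.9 and 159 CPM on day 2. Every library differed from the next, and the days did not overlap (log2 fold change -2.88 ± 0.69, adjusted p = 0.061). Against day 2 the feeder library alone passed the threshold (adjusted p = 0.013) and the no-feeder library alone did not (0.16). Olig2, a transcription factor of the oligodendrocyte and motor neuron lineages, had 0.723 and 4.23 CPM on day 4, against 12.2 and 8.92 CPM on day 2, not called (adjusted p = 0.15). Pax6 stayed close, with 19.2 and 20.9 CPM on day 4, against 14.5 and 13.1 CPM on day 2 (adjusted p = 0.39). Within the list 24 of 30 members were lower in the feeder than in the no-feeder library. The feeder library is the one with the fibroblast and macrophage genes, and the part of those genes in this difference was not tested.

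Of 26 neuron genes 1 was higher (1.83% of all genes) and 2 were lower (0.598% of all genes). The median was -0.86, 20 fold changes were negative and 13 members had both day 4 libraries below day 2 (24.2% of all genes). At an unadjusted p under 0.05 there were 3 higher and 11 lower, and DESeq2 called 2 higher and 7 lower. The median was -1.63 for the feeder and -0.59 for the no-feeder library alone. Mapt, the microtubule protein tau, had 97.4 and 112 CPM on day 4, against 40.8 and 47.5 CPM on day 2, and rose by 1.25 ± 0.24 (adjusted p = 0.035). Of the neurofilament-type genes on the list, Ina fell by 2.92 ± 0.64 (adjusted p = 0.048) and Nefm by 2.57 ± 0.51 (adjusted p = 0.038). Nefl, also on the list, was not called. Ina had 1.29 and 4.13 CPM on day 4, against 13.5 and 27.7 CPM on day 2. Tubb3, neuronal beta-tubulin, had 441 and 401 CPM on day 4, against 1059 and 531 CPM on day 2, with the day 2 libraries far apart, and was not called (adjusted p = 0.21). Of 10 genes of the oligodendrocyte lineage Mobp, a myelin protein, was the called member (0.598% of all genes were called lower). It had 2.07 and 1.23 CPM on day 4, against 7.95 and 12.2 CPM on day 2, and fell by 2.61 ± 0.38 (adjusted p = 0.019). Mobp was near 0 in the starting NPCs, with a mean of 0.094 CPM on day 0. Its means were highest later, at 33.4 CPM on day 8 and 58.5 CPM on day 12 in GFP-labelled libraries. Of the 365 called genes it was the only lower one that was also called with each day 4 library alone. Of 19 astrocyte and radial glia genes none was called in edgeR. At an unadjusted p under 0.05 there were 5 (19.8% of all genes), and DESeq2 called 2 (10% of all genes). Gfap had 1.08 and 5.31 CPM on day 4, against 0.638 and 6.31 CPM on day 2, wholly overlapping.

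Matrix and signalling genes depended on the library. Of 38 fibroblast and mesenchymal genes 2 were higher with both day 4 libraries (1.83% of all genes), 23 with the feeder library alone (2.71% of all genes) and 0 with the no-feeder library alone (0.438% of all genes). The median was 3.61 for the feeder and -0.23 for the no-feeder library alone. The 2 that rose were Dcn, the proteoglycan decorin, and Loxl2, a collagen crosslinking enzyme. Dcn had 423 and 255 CPM on day 4, against 103 and 42.6 CPM on day 2 (2.22 ± 0.42, adjusted p = 0.034), and Loxl2 had 329 and 204 CPM on day 4, against 100 and 105 CPM on day 2 (1.38 ± 0.25, adjusted p = 0.031). In both the no-feeder library too was above day 2. Of 19 TGF-beta genes Tgfb1, the ligand itself, was the called member (1.83% of all genes were called higher). It had 17.6 and 12.6 CPM on day 4, against 3.53 and 2.61 CPM on day 2 (2.30 ± 0.42, adjusted p = 0.031). The summed TGF-beta list was at 1135 CPM in the feeder and 375 CPM in the no-feeder library, against 266 and 405 CPM on day 2.

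**Figure D4:**
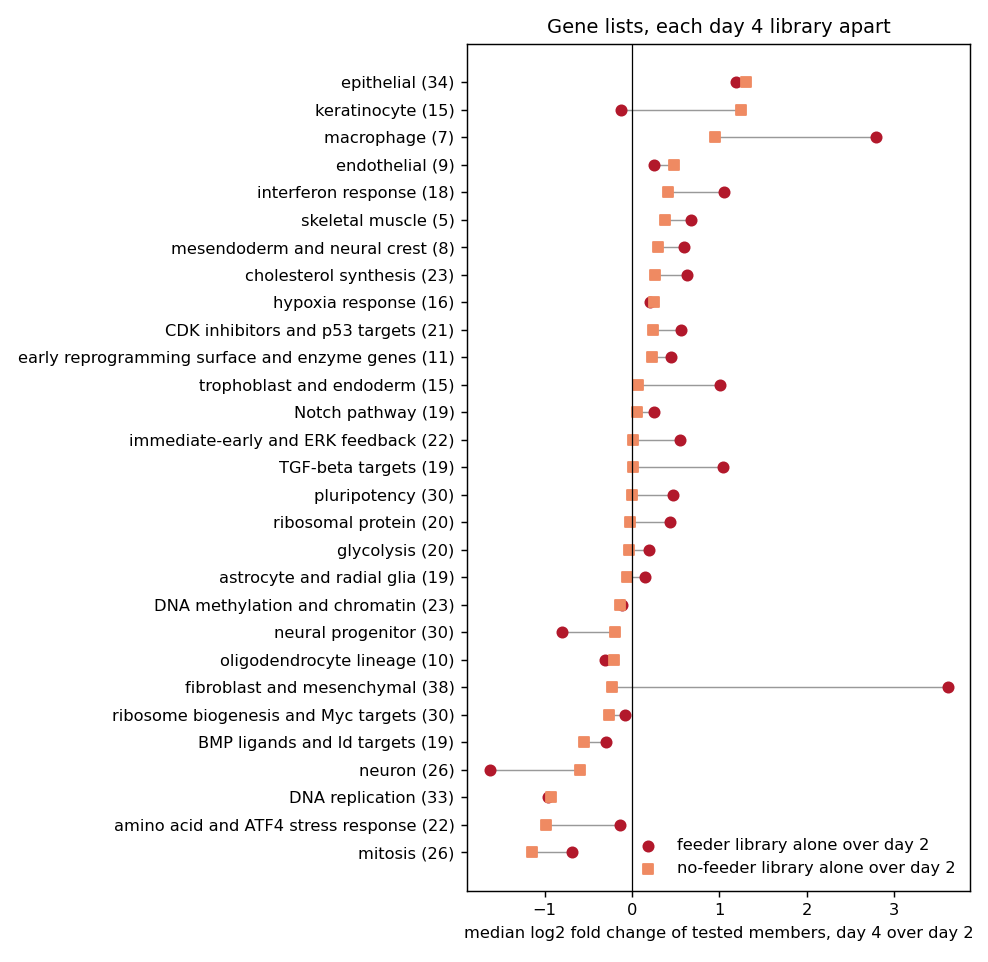
Median log2 fold change over day 2 of the tested members of each gene list (number in brackets), for the feeder library alone (red circles) and the no-feeder library alone (orange squares). Both comparisons use the same day 2 libraries. The feeder and no-feeder points lie at 1.19 and 1.31 for epithelial genes, at -0.96 and -0.93 for DNA replication genes, and at 3.61 and -0.23 for fibroblast and mesenchymal genes.

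A few genes of other pathways were called, where 1.83% of all genes were called higher and 0.598% lower. Among interferon response genes Bst2, an antiviral membrane protein, rose by 2.55 ± 0.50 (adjusted p = 0.036) and Stat2, a transducer of interferon signals, by 1.53 ± 0.31 (adjusted p = 0.038), 2 of 18 tested. Bbc3, the pro-apoptotic p53 target PUMA, had 85.5 and 58.9 CPM on day 4, against 26.9 and 19.99 CPM on day 2 and rose by 1.62 ± 0.30 (adjusted p = 0.031), 1 of 21 genes of its list. Of 23 cholesterol synthesis genes Dhcr7, the last enzyme of the pathway, rose by 1.65 ± 0.34 (adjusted p = 0.040) and Srebf2, its main transcription factor, by 1.25 ± 0.28 (adjusted p = 0.049). In the Notch list the receptor Notch3 rose by 2.18 ± 0.38 (adjusted p = 0.026) while Dtx4, a Deltex family member, fell by 1.28 ± 0.26 (adjusted p = 0.038). Hand1, a transcription factor of trophoblast and heart, had 94.9 and 108 CPM on day 4, against 20.3 and 29.7 CPM on day 2 and rose by 2.02 ± 0.34 (adjusted p = 0.029). Des, the muscle filament desmin, rose by 2.53 ± 0.52 (adjusted p = 0.040), and Rrs1, a ribosome assembly factor, fell by 0.98 ± 0.21 (adjusted p = 0.048). The feeder library was the higher of the day 4 pair for Bst2, Bbc3, Dhcr7 and Notch3, and the no-feeder library for Hand1, Srebf2 and Des. The other 10 lists without a call held 163 tested members, of which 33 had an unadjusted p under 0.05 (19.8% of all genes). DESeq2 called 12 of the 163 (10% of all genes). These shares are near or under those of all genes. The 10 lists were glycolysis, ribosomal proteins, the amino acid and ATF4 stress response, hypoxia, immediate-early genes, BMP and Id genes, mesendoderm and neural crest, DNA methylation and chromatin, germline and endothelial genes, with medians between -0.46 and 1.14.

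Outside the lists, rises of called genes that averaged 5 CPM or more covered many kinds of gene. Ttn, the muscle protein titin, had 27.2 and 27.5 CPM on day 4, against 0.393 and 0.301 CPM on day 2, and rose by 6.28 ± 1.25 (adjusted p = 0.038). Its libraries were close to each other within day 2 and within day 4. On day 0 it averaged 15.5 CPM with an SD of 20.2, so the day 0 libraries lay far apart. Cwh43, which takes part in the lipid remodelling of GPI anchors, had 76.7 and 116 CPM on day 4, against 5.20 and 5.16 CPM on day 2 (4.22 ± 0.58, adjusted p = 0.019). Fermt3, the integrin activator kindlin-3, had 39.1 and 23.7 CPM on day 4, against 2.60 and 2.36 CPM on day 2 (3.66 ± 0.42, adjusted p = 0.015). Both Cwh43 and Fermt3 were called with each day 4 library alone. Tpsg1, a tryptase, rose by 4.61 ± 0.82 (adjusted p = 0.029) and Slc13a3, a dicarboxylate transporter, by 4.47 ± 0.81 (adjusted p = 0.031). Ttn, Tpsg1 and Slc13a3 were called with the feeder library alone but not with the no-feeder library alone. With the feeder and no-feeder library alone their log2 fold changes were 6.27 and 6.29, 4.92 and 4.22, and 4.79 and 4.06. Other large rises leaned on the feeder library in size as well. Svep1, a secreted matrix protein, had 21.1 CPM in the feeder and 1.03 CPM in the no-feeder library, against 0.0981 and 0.150 CPM on day 2, and C3, a complement protein, had 57.4 and 7.28 CPM on day 4, against 1.96 and 1.00 CPM on day 2. Svep1 and C3 were called with the feeder library alone and not with the no-feeder library alone.

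The falls given next are of called genes that averaged 5 CPM or more over the 4 libraries. Mme, the membrane protease neprilysin, had 3.15 and 1.52 CPM on day 4, against 9.71 and 73.8 CPM on day 2, and fell by 4.16 ± 0.83 (adjusted p = 0.038). The size of that fall rests on day 2 library 2, the highest by far. Fat3, an atypical cadherin of the nervous system, had 1.81 and 2.36 CPM on day 4, against 14.5 and 7.01 CPM on day 2 (-2.36 ± 0.46, adjusted p = 0.038). Sall3, a zinc finger factor of development, had 2.27 and 5.06 CPM on day 4, against 14.5 and 17.0 CPM on day 2 (-2.10 ± 0.42, adjusted p = 0.041). Timeless, which guards replication forks, had 10.6 and 17.9 CPM on day 4, against 50.4 and 55.2 CPM on day 2 (-1.89 ± 0.42, adjusted p = 0.049). Fbxo5, an inhibitor of the anaphase-promoting complex, fell by 1.85 ± 0.39 (adjusted p = 0.045), and Dgcr8, the partner of Drosha in microRNA processing, by 1.81 ± 0.38 (adjusted p = 0.043). In each of these 6 genes both day 4 libraries were below both day 2 libraries.

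Across the 5 days of the NPC course, the genes above followed different courses. Epcam averaged 0.794 CPM on day 0, 7.81 on day 2, 43.0 on day 4, 238 on day 8 and 394 on day 12. Cdh1 averaged 19.6 CPM on day 0, 43.6 on day 2, 131 on day 4, 501 on day 8 and 735 on day 12. Both means were higher at each later day. Nes ran down from 1358 CPM on day 0 through 108 on day 2 and 14.7 on day 4 to 2.56 on day 8, and stood at 48.7 CPM on day 12. Mcm3 was at 184 CPM on day 0, 170 on day 2, 63.5 on day 4, 134 on day 8 and 115 on day 12, so day 4 was its lowest mean. Hand1 had its highest mean on day 4, with no count on day 0 and 4.96 CPM on day 12. These are means of 2 libraries, those of days 8 and 12 labelled GFP, and the steps other than day 4 against day 2 carry no test here.

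**Figure D5:**
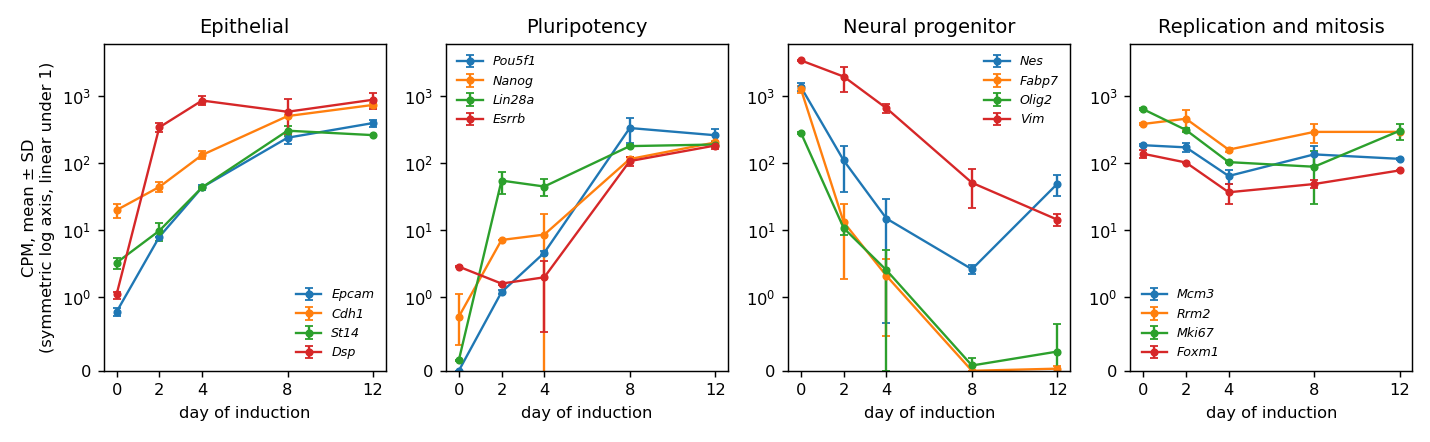
Mean CPM with SD (n = 2 libraries per day, symmetric log axis, linear under 1 CPM) of 16 genes on days 0, 2, 4, 8 and 12 of the NPC course. Epcam and Cdh1 climb at each day, Nes drops to 2.56 CPM on day 8, and Mcm3, Rrm2 and Foxm1 have their lowest mean on day 4.

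The change from day 2 to day 4 was set against the same step in mouse embryonic fibroblasts (MEFs), where day 4 carries a GFP label that the NPC day 4 libraries lack, so origin and label cannot be told apart. The difference of the 2 changes was called for 1 of 15811 genes (0.00632%) in edgeR, with 2277 at an unadjusted p under 0.05. Values below are CPM scaled over the 20 libraries of both origins. Epcam averaged 40.7 ± 2.8 on day 4 and 7.44 ± 0.08 on day 2 in NPCs, and 58.4 ± 9.7 on day 4 and 6.002 ± 2.787 on day 2 in MEFs (SD, n = 2 each). Its changes differed by -0.84 ± 0.54 (NPC minus MEF, log2, adjusted p = 0.47), which was not called. Pou5f1 averaged 4.27 ± 0.30 and 1.11 ± 0.10 on days 4 and 2 in NPCs, and 35.8 ± 27.6 and 0.894 ± 0.336 in MEFs, a difference of -3.39 ± 0.84 that was not called (adjusted p = 0.19). Nanog averaged 8.01 ± 8.36 and 6.68 ± 0.15 in NPCs, and 3.72 ± 1.18 and 0.104 ± 0.081 in MEFs, again not called (-4.85 ± 1.08, adjusted p = 0.18). With the feeder library left out the Nanog and Esrrb differences had adjusted p = 0.033 and 40 genes were called, and with the no-feeder library left out 138 genes were called. Col1a1 averaged 450 ± 559 and 78.2 ± 41.1 in NPCs, and 86.1 ± 36.7 and 558 ± 2 in MEFs, and the NPC day 4 spread is that between the feeder and the no-feeder library (5.22 ± 1.20, adjusted p = 0.19). Within the MEF comparison alone, in the fit of 20 libraries, 19 of 34 epithelial genes were higher (10.9% of all genes). In it 9 of 33 DNA replication genes were lower (11.3% of all genes). The NPC counts, from the fit of the 10 NPC libraries, were 10 higher (1.83% of all genes) and 8 lower (0.598% of all genes). None of these genes differed between the origins by the test of the difference.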

How the data were processed

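RNA-seq libraries of the NPC course were compared (2 per day), with MEF libraries for the test between origins. The authors deposited read counts for each gene, made from reads aligned with STAR 2.5.1b to mm9 after FastQC, per the submitters' processing notes. The counting tool, strand setting and annotation are not given in the sources used here. The table's name speaks of FPKM, but its values are whole counts, summing to 15902838 to 20102260 per library. The authors' deposited log2 fold change and its adjusted p-value are printed as theirs. Of 37999 lines, 379 repeated a gene and were dropped. Symbols turned into dates (27) were restored, and 2 count columns per table were not used. ChIP-seq peak lists were not used here.

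edgeR 4.0.16 in R 4.3.3 was fitted to the counts of all 10 NPC libraries (1 mean per day, TMM, at least 1 CPM in at least 2 libraries), or of 20 NPC and MEF libraries. SE is the absolute fold change (log2) divided by root F. Alternatives used DESeq2 1.42.0, limma 3.58.1, other filters and single libraries left out. The fit was also run on simulated counts. Those were drawn around the same mean for both libraries of a day, so they do not cover the difference between the day 4 libraries. The genes and the 32 lists were chosen with earlier results of these data known. Genes were named by a rule: 18 core genes, the 4 largest called changes per list, the 15 largest rises and falls from 5 CPM, and the 10 largest ratios each way between the day 4 libraries. The text prints part of these, and some list members were named after their values were seen. No mitochondrially encoded gene was matched by symbol. Promoter sequences are from RefSeq.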

Additional observations from a re-analysis of the deposited data

Results flagged for a closer look

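Ikbke, a kinase of the innate immune response, was the single gene whose change between days 2 and 4 differed between NPCs and MEFs by the test of the difference (edgeR, over 15811 genes), and it is named here after its values were seen. In NPCs it had 3.56 CPM in the feeder and 4.95 CPM in the no-feeder library on day 4, against 1.37 and 1.70 CPM on day 2. In MEFs it had 0.833 and 0.936 CPM on day 4, against 4.47 and 4.13 CPM on day 2. The libraries of each origin did not overlap between the days, and the origins moved in opposite directions. The difference, NPC minus MEF, was 3.74 ± 0.51 on the log2 scale (adjusted p = 0.040, 2 libraries per group). The adjusted p ran from 0.0070 without the no-feeder library to 0.35 without MEF day 4 replicate 3, and the gene was not called with only the 8 libraries of days 2 and 4 (0.27) or with the replicate block (0.32). The MEF day 4 libraries are labelled GFP and the NPC day 4 libraries are not, so origin and label cannot be told apart.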

How the results depend on the processing

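The 365 calls (275 higher, 90 lower) became 1510 with DESeq2 (1021 higher, 489 lower), 680 with quantile normalization and limma (434 and 246), 641 with the replicate number as a block (453 and 188) and 2 with only the 4 libraries of days 2 and 4 (2 and 0; 2425 at an unadjusted p under 0.05). Other size factors gave 410, no filter 298 and a filter at 5 CPM 433. Leaving out 1 library gave 0 to 488 calls, 0 to 408 higher and 0 to 80 lower. Nothing in the labels ties same-numbered samples together; their deviations correlated at -0.023 between days 2 and 4 and at -0.12 to 0.38 over all pairs of days, with 0.19 to 0.38 among days 2, 8 and 12, so whether the numbers pair samples is not settled. Of the 59 named called genes, 59 remained called with DESeq2 and the block, 55 with quantile normalization, 52 with no filter, 32 without the no-feeder library, 17 without day 2 library 1, 10 without the feeder library, 2 with 4 libraries only and 0 without day 2 library 2. The day 4 libraries differed in 232 genes at 4-fold, 864 at 2-fold and 367 from 5 CPM. The test between NPCs and MEFs called 1 gene, 0 with only the 8 libraries of days 2 and 4 (2590 at an unadjusted p under 0.05), 0 with the replicate block (1761), and 0 to 138 with a library left out: 0 without MEF day 2 replicate 2, MEF day 4 replicate 3 or either NPC day 2 library, 2 without MEF day 4 replicate 1, 5 without MEF day 2 replicate 1, 40 without the feeder and 138 without the no-feeder library. When a library is left out, the lone one of its day is assumed to vary like the other days. Counts of 1 to 3 reads limit the lowest genes.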
